A study of Mus musculus with 346 samples.

Results

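The MCM replication helicase genes are Mcm2, Mcm3, Mcm4, Mcm5, Mcm6 and Mcm7, whose proteins form the core of the helicase that opens DNA ahead of the replication fork, together with Mcm10, a helicase partner. They were chosen by name, and all 7 were present among the 20474 genes of the deposited single-cell table. The table holds 346 cells from mouse embryos, all of genotype Prox1-GFP (the transgene Tg(Prox1-EGFP), which puts green fluorescent protein under Prox1 control), each cell sorted for fluorescence into a well of a plate and sequenced on its own with Smart-seq2. The groups were foregut at embryonic stage E8.5 (82 cells, plate 1A), dorsal pancreatic bud at E10.5 (48 cells on plate 2A and 38 on plate 2B), ventral pancreatic bud at E10.5 (27 cells, plate 3), liver bud at E10.5 (78 cells, plate 5A) and pancreas at E14.5 (73 cells, plate 4A). The labels name no animal and no litter, so each group counts as 1 sample of many cells, no test between groups was possible, and plate, stage and tissue cannot be told apart except for the dorsal bud. Every group holds only cells bright for the transgene, and no cells without it were used here as a control.

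MCM2 to MCM7 make a ring that is loaded onto DNA at replication origins in G1 phase by the origin recognition complex with CDC6 and CDT1, and that stays inactive until CDC45 and the GINS complex join it at the start of S phase. MCM10 binds this assembly and is needed for it to unwind DNA. The MCM genes are E2F targets, expressed while cells cycle, and their products are widely used as marks of cycling or cycle-competent cells because they are lost when cells leave the cycle for good.

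RefSeq promoter windows (build GRCm38.p6) were at hand for 6 of the 7 genes. Shown are the 180 bases before the RefSeq start of Mcm6 and Mcm5, the members with an E2F motif, and of Mcm3 and Mcm2, the members with the largest and the smallest difference between hormone cells and other cells of the dorsal bud. Each runs 5′ to 3′ on the gene's strand, and capitals mark E2F motifs (TTTCGCGC and TTTGGCGC and TTCCCGCC, either strand) and the CCAAT box that NF-Y binds (CCAAT, either strand). They lie at chr1:128359706-128359885, minus strand (Mcm6), chr8:75109329-75109508, plus strand (Mcm5), chr1:20820313-20820492, minus strand (Mcm3) and chr6:88898781-88898960, minus strand (Mcm2).
Mcm6: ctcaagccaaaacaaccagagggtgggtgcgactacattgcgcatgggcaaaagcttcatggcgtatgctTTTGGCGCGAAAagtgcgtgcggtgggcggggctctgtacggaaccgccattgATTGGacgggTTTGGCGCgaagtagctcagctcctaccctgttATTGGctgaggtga
Mcm5: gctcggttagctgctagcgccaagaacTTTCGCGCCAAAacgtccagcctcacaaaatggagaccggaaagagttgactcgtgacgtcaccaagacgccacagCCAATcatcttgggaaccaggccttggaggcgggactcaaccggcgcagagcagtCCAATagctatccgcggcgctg
Mcm3: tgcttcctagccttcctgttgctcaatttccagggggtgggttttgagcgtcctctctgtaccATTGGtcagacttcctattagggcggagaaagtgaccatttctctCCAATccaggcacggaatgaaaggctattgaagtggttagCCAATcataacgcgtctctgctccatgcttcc
Mcm2: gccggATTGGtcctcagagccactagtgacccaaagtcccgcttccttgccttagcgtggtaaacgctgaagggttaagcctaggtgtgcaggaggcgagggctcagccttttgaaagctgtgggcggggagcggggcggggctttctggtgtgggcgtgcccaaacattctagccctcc

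In the 250 bases before the start, Mcm6 held TTTGGCGC beginning 110 and 47 bases before the start, and TTTCGCGC on the other strand beginning 106 bases before it, which overlaps the farther TTTGGCGC. Mcm5 held TTTCGCGC beginning 153 bases before its start and an overlapping TTTGGCGC on the other strand at 149 bases. Any of the 3 E2F motifs occurred in 815 of 32851 RefSeq windows of the same length (2.48%). A CCAAT box occurred in all 7 windows of the 6 genes (Mcm7 has 2 windows) and in 33.85% of all windows. For Mcm6 and Mcm5 the RefSeq start lies upstream of the start in the GENCODE annotation. These matches describe letters, not sites of binding. On GRCm38, by the GENCODE annotation, the genes lie at chr6:88883474-88898780 (Mcm2), chr1:20802968-20820312 (Mcm3), chr16:15623897-15637400 (Mcm4), chr8:75109569-75128439 (Mcm5), chr1:128331590-128359664 (Mcm6), chr5:138164583-138172422 (Mcm7) and chr2:4989714-5012791 (Mcm10), all protein-coding, Mcm5 on the plus strand and the other 6 on the minus strand. Mcm3 and Mcm6 share chromosome 1.

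The depth of the cells ran from 510222 to 3431728 reads, with a median per plate between 811359 (pancreas at E14.5) and 2510704 (liver). Markers went against the labels in places. On the plate labelled pancreatic epithelium, 58 of 73 cells carried 3 or more of 9 mesenchyme markers and only 13 carried 2 or more of 6 epithelial genes. On the plate labelled foregut endoderm, 21 of 82 cells carried 2 or more epithelial genes and 41 carried 3 or more of 7 neural markers. Of those 21 cells 10 also carried 3 or more of 7 cardiac markers and 3 carried 3 or more mesenchyme markers. On the liver plate 35 of 78 cells and in the dorsal bud 73 of 86 cells met the epithelial rule, as did all 27 cells of the ventral bud. Results for the foregut, the liver and the pancreas at E14.5 are therefore given for the whole plate and for the cells by marker.

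All 7 MCM genes stood highest in the foregut. The unit of a level is log2(normalized reads + 1), averaged over cells; detection means at least 5 normalized reads. Mcm2, whose product also binds histones, ran from 5.27 in the lowest foregut cell over a median of 9.27 to 11.59 in the highest, with a mean of 9.25 ± 1.01 (SD over 82 cells). Mcm6 and Mcm7, which with MCM4 form a subcomplex with helicase activity of its own, had foregut means of 9.48 ± 1.51 and 9.52 ± 1.70. Mcm3 at 9.10 ± 1.31, Mcm5 at 8.92 ± 1.65 and Mcm4 at 8.57 ± 1.75 followed. Mcm2, Mcm3 and Mcm6 were detected in all 82 foregut cells (95% exact Clopper-Pearson interval 95.6 to 100%, counting error only), Mcm5 in 81, and Mcm4 and Mcm7 in 80 each. Mcm10 was lower and more uneven, from 0 over a median of 6.52 to 9.87 with a mean of 5.69 ± 3.09, and was detected in 65 of 82 cells (79.3%, interval 68.9 to 87.4%).

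**Figure D1:**
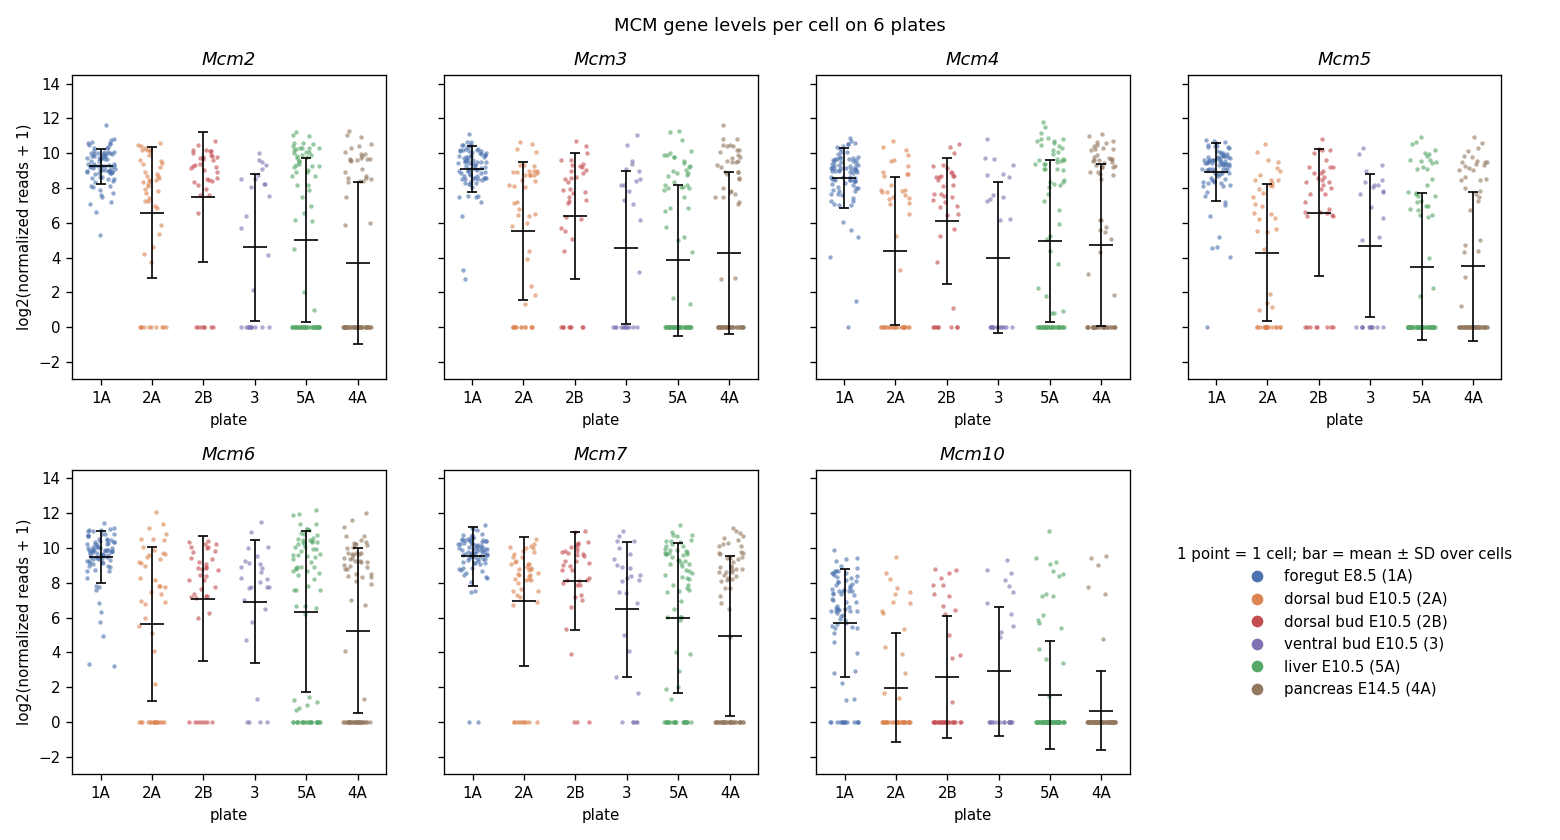
Level of each MCM gene in each cell by plate, as log2(normalized reads + 1) on the vertical axis, with the 6 plates along the horizontal axis; 1 point is 1 cell, and the bar gives the mean ± SD over cells. Foregut cells form a band near 9 for Mcm2 to Mcm7, while every other plate splits into cells at 0 and cells near the foregut band, and Mcm10 is at 0 in most cells outside the foregut.

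Outside the foregut the genes were split between cells at 0 and cells with a high level. For Mcm2 the plate means ran in the order foregut 9.25, dorsal bud plate 2B 7.48 ± 3.71, dorsal bud plate 2A 6.58 ± 3.76, liver 5.01 ± 4.72, ventral bud 4.58 ± 4.20 and pancreas at E14.5 3.68 ± 4.63. Among cells where Mcm2 was detected, however, the median level lay between 8.50 (ventral bud) and 9.64 (liver), close to the 9.27 of the foregut. The share of cells differed more between plates, at 100% in the foregut, 81.6% and 79.2% on dorsal plates 2B and 2A, 55.6% in the ventral bud, 53.8% for liver cells and 39.7% (interval 28.5 to 51.9%) in the pancreas at E14.5. The other genes split likewise: Mcm4, the ring subunit with a tail that the DBF4-dependent kinase phosphorylates, was detected in 97.6% of foregut cells but 76.3% and 54.2% of dorsal cells on 2B and 2A, 53.8% of liver cells, 53.4% of cells at E14.5 and 48.1% of ventral bud cells, with medians where detected between 7.87 (2A) and 9.48 (E14.5). Since the cells with and without a gene lie so far apart, no neighbouring pair of plates in the order of means differed by more than the SD over cells of the lower plate, for any of the 7 genes, and in each gene the ranges of all plates overlapped.

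Behind the foregut, dorsal plate 2B came next for the 6 ring genes, and the order of the other plates differed by gene. Mcm5, which closes the ring against MCM2 at the gate where DNA enters, had a mean of 6.58 ± 3.63 on 2B, then 4.67 ± 4.11 in the ventral bud, 4.29 ± 3.94 on 2A, 3.51 ± 4.29 at E14.5 and 3.48 ± 4.23 in the liver. Mcm3, the subunit through which the ring is recruited to the origin complex, had 6.37 ± 3.62 on 2B, 5.53 ± 3.96 on 2A, 4.57 ± 4.39 in the ventral bud, 4.25 ± 4.65 at E14.5 and 3.84 ± 4.35 in the liver. In the ventral bud and the liver Mcm6 and Mcm7 were detected in the largest shares of cells among the 7 genes. Mcm6 was detected in 81.5% of ventral bud cells and 65.4% of liver cells, and Mcm7 in 77.8% and 67.9%, against 55.6% for both Mcm2 and Mcm3 in the ventral bud and 44.9% for Mcm3 in the liver. On plate 2A, by contrast, Mcm6 was detected in 31 of 48 cells, fewer than Mcm2 (38). In Mcm10 the foregut was followed by the ventral bud at 2.91 ± 3.71 (detected in 11 of 27 cells), 2B at 2.57 ± 3.50 (14 of 38), 2A at 1.97 ± 3.14 (14 of 48), the liver at 1.56 ± 3.10 (17 of 78) and E14.5 at 0.66 ± 2.26 (6 of 73, 8.22%, interval 3.08 to 17%).

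The liver cells had the most reads, and shares were therefore recomputed with every cell thinned to 500000 reads. This evens out the reads of the cells, but not the number of genes found per cell. Thinned shares moved little: in the liver Mcm10 went from 21.8% to 19.2%, Mcm5 from 41% to 42.3% and Mcm7 from 67.9% to 69.2%, and in the foregut Mcm10 went from 79.3% to 78%. Per length of the principal GENCODE transcript, a scale on which genes can be compared, Mcm6 and Mcm7 were highest in the foregut with 332 and 324 normalized reads per kb, ahead of Mcm3 at 232, Mcm2 at 221, Mcm5 at 199 and Mcm4 at 156, and Mcm10 was far below at 33.7. Mcm6 led in the liver as well (257 normalized reads per kb), and Mcm10 was lowest on every plate, down to 6.63 at E14.5. Mcm7 exons overlap exons of Ap4m1 on the opposite strand by 321 bases (7.25% of its exon bases) and of Cops6 by 64 bases, and since strand use in the counting is not given in the sources used here, reads of these genes may not be fully told apart.

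Differences from the foregut were counted at 1 or more on the log2 scale, over genes with a mean of at least 1 in either group. These comparisons share the foregut cells and are given side by side. They took all cells of each plate, so cell types differ as well, and the part of this was not tested. Among cells that met the epithelial rule, the mean level over the 7 genes was 7.91 ± 1.20 in the foregut. Without Pyy cells it was 7.17 ± 1.70 on 2B and 5.49 ± 2.45 on 2A. The liver had 5.81 ± 1.96, the ventral bud 4.87 ± 2.08 and the pancreas at E14.5 1.46 ± 1.75. All 7 MCM genes were higher in the foregut than on dorsal plate 2A, with a median difference of 3.72, where 37.7% of all genes were also higher and the median of all genes was 0.64. All 7 were higher than on plate 2B (median 2.40), against 17.7% of all genes and an overall median of 0.24. All 7 were also higher than in the ventral bud (median 4.25), the liver (4.12) and the pancreas at E14.5 (4.85), but there most genes were higher in the foregut too: 55.1%, 67.1% and 64.7%, with overall medians of 1.15, 1.52 and 1.47. Foregut cells held a median of 6548 genes with a read, against 6073 on 2B, 5106 on 2A, 4202 in the ventral bud, 3582 on the liver plate and 3162 at E14.5, and the part of this in the differences was not tested. The smallest difference among members against 2B was 1.42 (Mcm7) and the largest 3.12 (Mcm10).

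Within the foregut plate the MCM genes were high both in cells with neural markers and in cells with epithelial genes. The mean level over the 7 genes was 8.95 ± 0.80 in the 41 cells with 3 or more neural markers, from 6.66 to 10.35, and 7.91 ± 1.20 in the 21 cells with 2 or more epithelial genes, from 5.13 to 9.30. These ranges overlap. All 7 cardiac markers were seen among the 21 epithelial-rule cells (summed level 0 to 82.5 per cell), and the mean MCM level was 7.90 ± 1.19 in the 10 of them with 3 or more cardiac markers and 7.91 ± 1.27 in the other 11. All 7 genes were detected together in 33 of the 41 neural-marker cells and in 13 of the 21 that met the epithelial rule (7 of the 10 with cardiac markers and 6 of the other 11). In these 21 cells Mcm2 averaged 8.73 ± 0.97, Mcm5 7.70 ± 1.74 and Mcm10 4.83 ± 3.15, and Mcm10 was detected in 15 of 21.

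The number of MCM genes per cell gives the same picture cell by cell. Of the 82 foregut cells 63 had all 7 genes, 17 had 6, and none had fewer than 4. The share of cells with 4 or more was 100% in the foregut (interval 95.6 to 100%), 78.9% on dorsal plate 2B (30 of 38, interval 62.7 to 90.4%), 63% in the ventral bud (17 of 27, 42.4 to 80.6%), 56.2% on dorsal plate 2A (27 of 48, 41.2 to 70.5%), 48.7% in the liver (38 of 78, 37.2 to 60.3%) and 41.1% at E14.5 (30 of 73, 29.7 to 53.2%). Apart from the foregut the intervals of plates next to each other in this order overlap. All of them give counting error over cells only and do not compare the plates. Thinning to 500000 reads changed none of these 6 shares. After thinning the median number of genes per cell still ran from 6303 in the foregut to 3040 at E14.5. The part of this in the shares was not tested. Cells with none of the 7 genes were found on 3 plates: 10 of 73 at E14.5, 3 of 78 in the liver and 1 of 48 on 2A.

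**Figure D2:**
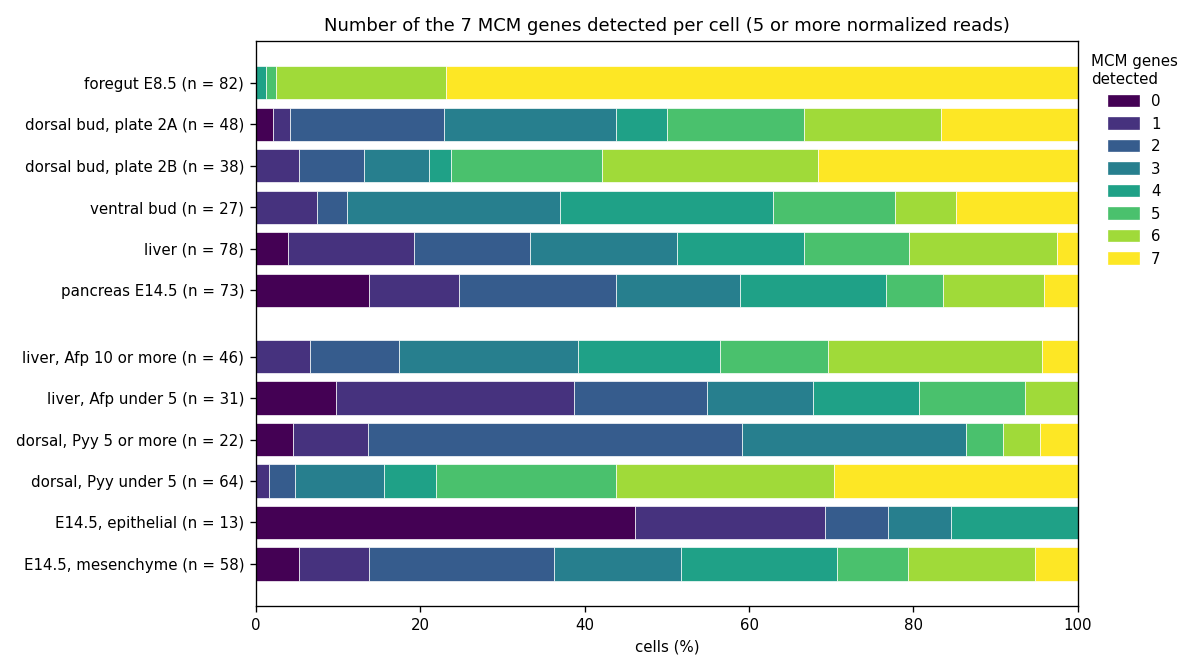
Share of cells (horizontal axis, percent) by the number of MCM genes detected at 5 or more normalized reads, for the 6 plates and for cells by marker within plates; colours run from 0 to 7 genes. All 7 genes were found in 63 of 82 foregut cells, in 12 of 38 cells of dorsal plate 2B, and in none of the 13 epithelial cells at E14.5, of which 6 had no MCM gene.

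On the liver plate most MCM genes were higher in the cells with Afp, the fetal albumin that marks hepatoblasts, than in those without. The 46 cells with an Afp level of 10 or more (lowest 11.60) were compared with the 31 cells below 5 (highest 3.70). Mcm7 ran from 0 over a median of 9.12 to 11.34 in Afp-high cells, with a mean of 7.35 ± 3.79, and from 0 over 1.92 to 10.75 in Afp-low cells, with 4.03 ± 4.28, a difference of 3.32. Mcm3 had 5.00 ± 4.42 against 2.17 ± 3.77 (difference 2.83), Mcm6 7.27 ± 4.09 against 4.80 ± 5.02 (2.47) and Mcm4 5.82 ± 4.56 against 3.70 ± 4.61 (2.12). Mcm2 had 5.56 ± 4.61 against 4.30 ± 4.91 (1.26), Mcm5 3.90 ± 4.22 against 2.88 ± 4.29 (1.02) and Mcm10 1.96 ± 3.27 against 1.02 ± 2.83 (0.95). The ranges overlapped in all 7 genes, each of which had cells at 0 and cells above 9 in both groups.

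By this count 6 of 7 MCM genes were higher by 1 or more in Afp-high cells, but 44.8% of all 7504 genes were higher as well, and the median over the MCM genes, 2.12, stood beside 0.84 over all genes. How many genes passed a difference of 1 depended on how cells were counted, and Mcm2 and Mcm10 changed direction. Taking the log2 of the mean in place of the mean of log2 left 2 genes higher by 1 or more, Mcm3 at 1.87 and Mcm7 at 1.29, and put Mcm2 at -0.04 and Mcm10 at -0.47. Leaving out cells with under 2000 genes left 3, with Mcm7 at 2.84, Mcm3 at 1.79, Mcm6 at 1.54 and Mcm2 at -0.13. Scaling by total reads or by median of ratios left 4 and 5, with all 7 differences above 0. The median of all genes moved as well, between 0 and 2.16 over all settings. Each of these counts thus has its own background, which is not given here. Mcm3 and Mcm7 stayed higher by 1 or more under each of the 10 alternatives tried. The share of cells with 4 or more MCM genes was 60.9% (28 of 46, interval 45.4 to 74.9%) against 32.3% (10 of 31, interval 16.7 to 51.4%), and Mcm7 was detected in 80.4% against 48.4% of cells and Mcm3 in 58.7% against 25.8%.

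The Afp-low cells were of several kinds. Of 31, 14 carried 3 or more mesenchyme markers (8 of 9 markers seen, summed level 0 to 59.4 per cell), 9 carried 3 or more of 7 cardiac markers (6 seen, summed level 0 to 65.8) and 3 carried 3 or more endothelial markers, while no Afp-high cell met any of these rules (summed mesenchyme level 0 to 7.5, with Pdgfra, Pdgfrb, Col3a1, Dcn, Postn, Twist1 and Prrx1 never detected). Afp-low cells also held fewer genes, a median of 2936 against 3898. With the cells that carry another type's markers left out, 7 Afp-low cells remained, of which 1 had 4 or more MCM genes (14.3%), and the median MCM difference was 2.80. Over all settings tried the median of all genes by Afp ran from 0 to 2.16. Its value for these cells alone is not given here, so 2.80 cannot be set beside the main median of all genes. By marker, the 35 epithelial liver cells had 4 or more MCM genes in 71.4% (interval 53.7 to 85.4%) and the 14 mesenchyme cells in 42.9% (interval 17.7 to 71.1%). These intervals overlap. The epithelial cells held a median of 4082 genes and the mesenchyme cells 2978, and the part of this was not tested. Mcm7 averaged 8.10 ± 3.40 in the epithelial and 4.32 ± 4.35 in the mesenchyme cells, while Mcm5 was nearly level at 4.07 ± 4.29 and 3.84 ± 4.66. A single liver cell lay between the Afp limits at 6.57, and it had Mcm6 at 11.36 but the other members between 0 and 2.95.

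**Figure D3:**
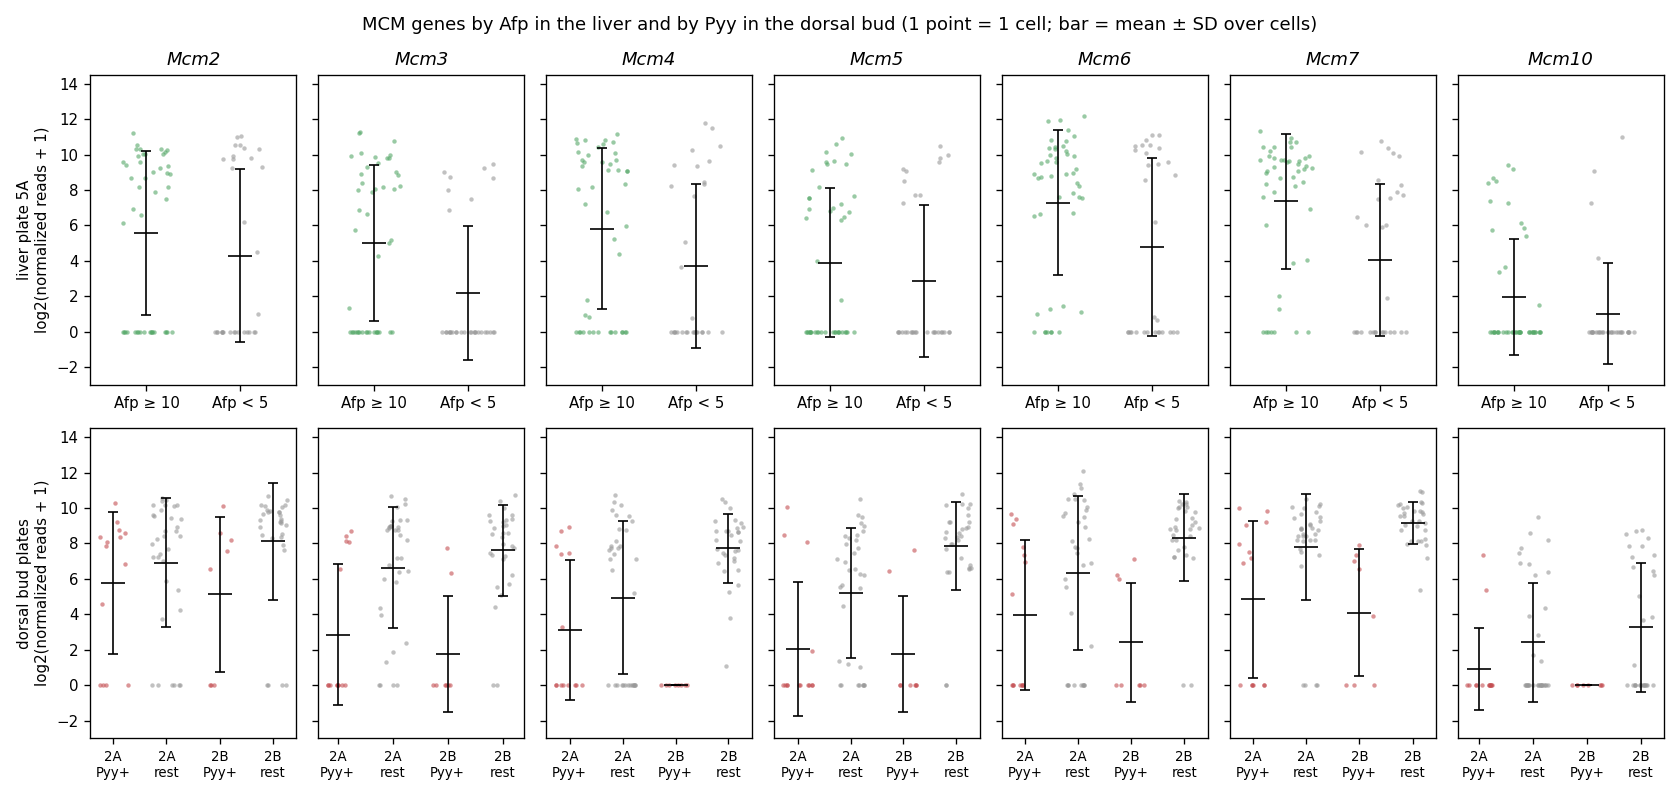
MCM gene levels per cell, as log2(normalized reads + 1) on the vertical axis, in liver cells by Afp (upper row) and in dorsal bud cells by Pyy on plates 2A and 2B (lower row); 1 point is 1 cell, and the bar gives the mean ± SD over cells. In the lower row the cells with Pyy lie mostly at 0 for Mcm3, Mcm4 and Mcm5, all 8 of them for Mcm4 on plate 2B, while Mcm6 is detected in 10 of 22 and Mcm2 in 15 of 22.

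Other genes of replication and division were also higher in Afp-high liver cells. Of 9 origin licensing genes above the floor 7 were higher and none lower (median 1.74), led by Gmnn (3.19), the inhibitor of CDT1. Of 9 helicase activation genes 6 were higher (median 1.60), led by the GINS subunit gene Gins2 (3.59) and Wdhd1 (2.95). Fork genes were higher in 19 of 22 (median 2.51), among them Pcna, the sliding clamp, at 7.74 against 5.32, and mitosis genes in 9 of 10 (median 2.95), with Top2a at 7.94 against 3.99 and Mki67 at 5.42 against 3.53. Of 11 regulators of G1/S passage 5 were higher and 1 lower: Cdk6 differed by 6.70, Ccne1 (cyclin E1) by 5.98 and Ccnd1 (cyclin D1) by 3.54, whereas Ccnd3 (cyclin D3), named here as the only lower gene, differed by -1.74. Of 6 cell cycle inhibitor genes 2 were higher, E2f4 by 1.93 and Cdkn1a (p21) by 1.49, and Cdkn1c (p57) was nearly level at 8.0 and 8.2. All of these counts stand against the 44.8% of all genes that were higher.

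In the dorsal bud all 7 MCM genes were lower in the cells with Pyy, a peptide hormone of early endocrine cells. Cells with a Pyy level of 5 or more numbered 22 (14 on plate 2A and 8 on plate 2B, lowest 5.50), and the other 64 cells had at most 2.94. Mcm3 ran from 0 over a median of 0 to 8.72 in the cells with Pyy, with a mean of 2.45 ± 3.70, and from 0 over 8.42 to 10.71 in the rest, with 7.09 ± 3.08, a difference of -4.64. Mcm5 had 1.94 ± 3.51 against 6.46 ± 3.41 (difference -4.52) and Mcm4 1.98 ± 3.46 against 6.24 ± 3.68 (-4.26). Most Pyy cells were at 0 in these 3 genes, and a few reached the level of the rest.

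Mcm7 and Mcm6 were also lower, and Mcm2 least so. Mcm7 had 4.56 ± 4.07 against 8.44 ± 2.42 (difference -3.87) and Mcm6 3.40 ± 3.94 against 7.26 ± 3.71 (-3.86). Mcm2 had 5.54 ± 4.04 against 7.48 ± 3.53 (-1.93) and was detected in 15 of 22 Pyy cells (68.2%, interval 45.1 to 86.1%), at a median of 8.37 where detected, against 54 of 64 of the rest (84.4%, interval 73.1 to 92.2%), at 9.29. By contrast Mcm3 was detected in 7 of 22 (31.8%, interval 13.9 to 54.9%) against 55 of 64 (85.9%, interval 75 to 93.4%), Mcm4 in 6 against 49, and Mcm5 in 5 against 51. Mcm10 was detected in 2 of 22 against 26 of 64, with means of 0.58 ± 1.90 and 2.80 ± 3.49. The ranges of the 2 groups overlapped in all 7 genes.

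All 7 genes were lower by 1 or more in Pyy cells, where 22.9% of all 10204 genes were lower and the median of all genes was -0.07 against -3.87 for the MCM genes. Of all genes 0.392% had a more negative difference than Mcm3 and 8.22% than Mcm2. The share of cells with 4 or more MCM genes was 13.6% (3 of 22, interval 2.91 to 34.9%) in Pyy cells and 84.4% (54 of 64, interval 73.1 to 92.2%) in the rest. These intervals give counting error over cells only and do not compare the groups, since no animal is named. Cells were alike in depth, with median reads of 879078 and 871445 and a median of 5717 and 5601 genes, and thinning changed neither share.

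Each dorsal plate showed the same direction, with larger values on 2B. On plate 2A all 7 genes were lower, where 22.8% of all genes were, with differences from -1.13 (Mcm2) to -3.79 (Mcm3) and a median of -2.35. On plate 2B all 7 were lower, where 29.4% of all genes were, from -2.99 (Mcm2) to -7.73 (Mcm4), with a median of -5.85. Mcm4 and Mcm10 had no read in any of the 8 Pyy cells of 2B (0 of 8 allows a share of up to 37.5%), whereas 29 and 14 of the other 30 cells had Mcm4 and Mcm10. The share of cells with 4 or more MCM genes was 3 of 14 (21.4%) against 24 of 34 (70.6%) on 2A, and 0 of 8 against 30 of 30 on 2B. On 2B the number of MCM genes per cell ran from 1 to 3 in Pyy cells and from 4 to 7 in the rest, without overlap, while on 2A it ran from 0 to 7 and from 1 to 7. The difference between the plates was not tested.

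The cells compared also differed in type. All 22 Pyy cells met the epithelial rule, had 9 of 10 endocrine markers among them (summed endocrine level 23.1 to 89.8 per cell, against 0 to 38 in the rest) and none carried 3 or more mesenchyme markers, while 13 of the 64 others did (summed mesenchyme level 0 to 16.2 against 0 to 33.6). Against only the 51 other cells that met the epithelial rule, all 7 genes were again lower, with differences from -1.51 (Mcm2) to -4.28 (Mcm3) and a median of -3.60, and 80.4% of those 51 cells had 4 or more MCM genes (interval 66.9 to 90.2%).

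Most other replication genes were lower in the same Pyy cells too, unevenly by role, beside 22.9% of all genes. Of 10 origin licensing genes 5 were lower and none higher (median -1.30): Cdt1 differed by -3.63, Gmnn by -2.75, Cdc6 by -2.52 and Mcmbp, whose product binds the MCM ring, by -1.95. Of the 6 genes of the origin recognition complex, singled out after their values were seen, Orc3 was lower (-1.71), and the other 5 lay between -0.90 (Orc1) and 0.63 (Orc2). Of 10 helicase activation genes 9 were lower (median -2.01), with Dbf4, the activator subunit of the CDC7 kinase, at -2.97 and Ticrr at -2.95. Fork genes were lower in 20 of 22 (median -2.11), Pcna among them at 2.60 against 6.28, and genes of nucleotide supply and S phase chromatin in 11 of 12 (median -3.47), with the ribonucleotide reductase gene Rrm2 at 1.37 against 7.07. All 10 mitosis genes were lower (median -4.54), Ccnb1 by -4.99, Top2a at 2.08 against 6.66 and Mki67 at 1.10 against 4.66.

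Regulators of the cycle differed in both directions. Of 11 G1/S genes 9 were lower and none higher, with Ccnd2 (cyclin D2) at 3.38 against 8.19 and Ccnd1 at 0.34 against 4.92. Of 8 inhibitor genes 5 were higher, where 20.5% of all genes were, and 1 lower: the antiproliferative gene Btg2 was at 5.53 against 1.16 (difference 4.37), Cdkn2d (p19) differed by 2.54, and Cdkn1c differed by -1.90. Cdkn1a was at 6.40 against 4.10 over both plates, but this rested on plate 2B, where all 8 Pyy cells had it at a mean of 9.38 against 2.54, while on 2A it was at 4.70 against 5.48. Among the other MCM family genes Mcm8, which acts in recombination, was also lower in Pyy cells, at 0.52 against 2.30 (difference -1.78). Mcm9 was at 0.94 against 1.48 (-0.54).

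**Figure D4:**
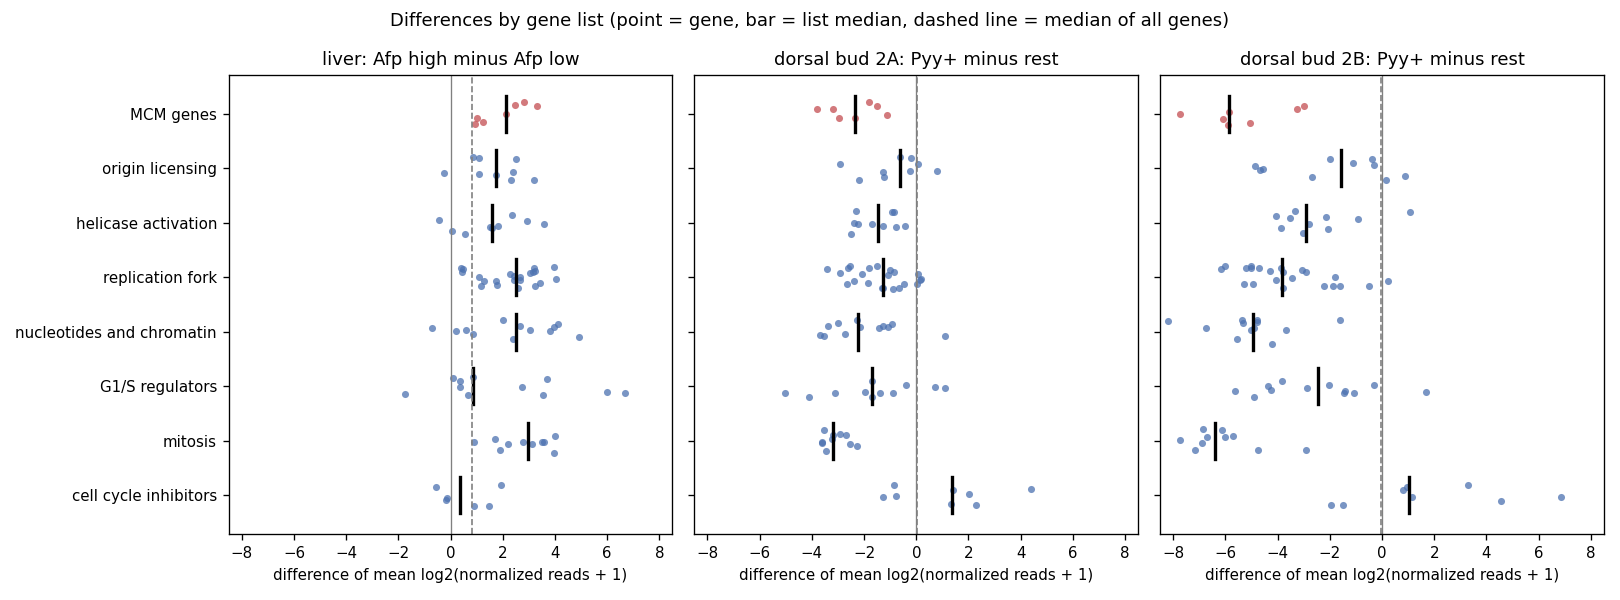
Difference of the mean log2(normalized reads + 1) for each gene (point) of 8 lists, with the list's median (black bar) and the median of all genes (dashed line), for liver cells by Afp and for dorsal bud cells by Pyy on each plate. The MCM, nucleotide and mitosis genes lie left of 0 on both dorsal plates apart from Slbp at 1.12 on 2A, while in the liver the dashed line itself lies at 0.84.

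Taken over all cells, those with Pyy included, the plates of the dorsal bud also differed from each other. On 2B 4 of 7 MCM genes were higher by 1 or more than on 2A, as were 26.1% of all genes. The median was 1.17 against 0.42 over all genes. Mcm5 differed by 2.29, Mcm4 by 1.70, Mcm6 by 1.46 and Mcm7 by 1.17, and Mcm2, Mcm3 and Mcm10 by less than 1. Both plates hold the same tissue and stage per the labels. Cells with 3 or more mesenchyme markers numbered 10 of 38 on 2B and 3 of 48 on 2A, and Pyy cells 8 and 14. The median number of genes with a read was 6073 on 2B and 5106 on 2A. The part of these in the difference was not tested.

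At E14.5 the MCM genes were detected in few epithelial cells and in more of the mesenchyme cells of the same plate. Among the 13 epithelial cells, 12 of which carried 3 or more endocrine markers, 6 had none of the 7 genes, 3 had 1 and none had more than 4. Mcm4 was detected in 1 of 13 (interval 0.195 to 36%) and Mcm7, the most frequent, in 4 of 13 (30.8%, interval 9.09 to 61.4%). In the 58 mesenchyme cells Mcm4 and Mcm6 were each detected in 37 (63.8%, interval 50.1 to 76%) and Mcm7 in 36. Means were 5.75 ± 4.54 against 0.74 ± 2.66 for Mcm4, 6.05 ± 4.69 against 2.13 ± 3.81 for Mcm6 and 4.31 ± 4.75 against 1.42 ± 3.48 for Mcm2. The ranges overlapped, since the highest epithelial cell reached between 7.33 (Mcm10) and 9.94 (Mcm2).

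The 6 ring genes were all higher by 1 or more in the mesenchyme cells, where 20% of all 8863 genes were, with a median of 3.27 against -0.38 over all genes. Mcm10 was near 0 in both, at 0.70 ± 2.36 and 0.56 ± 2.03. Cells with 4 or more MCM genes made up 48.3% of the mesenchyme (28 of 58, interval 35 to 61.8%) and 15.4% of the epithelial cells (2 of 13, interval 1.92 to 45.4%). The mesenchyme cells held fewer genes, a median of 3036 against 3828. Mitosis genes were low in both, with 2 of 7 higher in the mesenchyme, Cdk1 by 1.97 and Top2a by 1.08: Mki67 was at 1.37 against 0.68 and Top2a at 2.27 against 1.19. Cdkn1a was detected in 12 of 13 epithelial cells at a mean of 9.65 and had no read in the 58 mesenchyme cells (0 of 58 allows a share of up to 5.17%), Btg2 was at 8.23 against 0.13, and Cdkn1c was the reverse at 3.63 against 10.38. Among the cyclin D genes, Ccnd2 was at 8.46 and Ccnd3 at 9.93 in the mesenchyme against 1.24 and 3.82 in the epithelial cells.

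**Figure D5:**
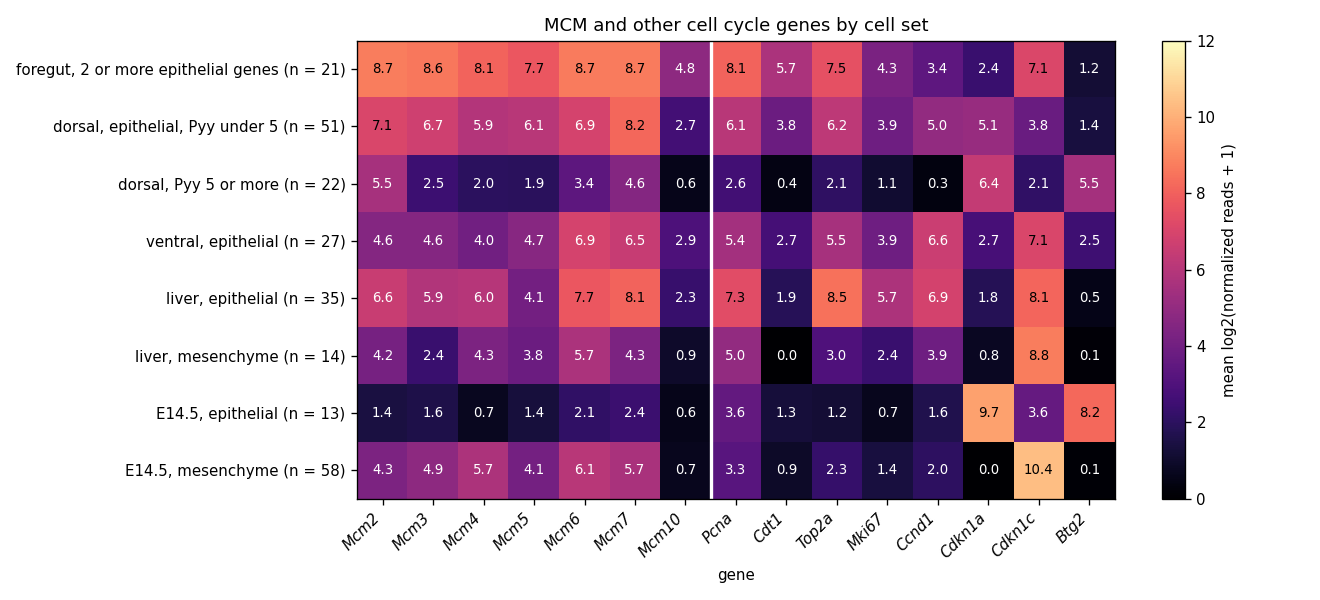
Mean log2(normalized reads + 1) of the 7 MCM genes (left of the white line) and 8 other cell cycle genes in cells by marker, with the number of cells per row. Of the 8 rows the 21 foregut cells with 2 or more epithelial genes, 10 of which carry 3 or more cardiac markers, have the highest mean of each MCM gene and the epithelial cells at E14.5 the lowest. The dorsal rows pool plates 2A and 2B. The 30 cells of 2B without Pyy, of which 22 met the epithelial rule, are not a row here. They exceeded those foregut cells in Mcm7 (9.17 against 8.70) and Mcm5 (7.86 against 7.70). In Mcm2, Mcm3, Mcm4, Mcm6 and Mcm10 they were lower. Cdkn1a and Btg2 are at 6.4 and 5.5 in the dorsal Pyy cells and at 9.7 and 8.2 in the epithelial cells at E14.5.

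Within a plate the MCM genes varied together, more on some plates than on others. Over the 21 pairs of members, the median Pearson r across cells was 0.47 on dorsal plate 2B (38 cells), 0.36 on 2A (48 cells), 0.32 in the foregut (82), 0.28 at E14.5 (73), 0.20 in the liver (78) and 0.14 in the ventral bud (27), where it ran from -0.23 to 0.42. These are descriptions over cells that share a plate and differ in depth and in cell type. On 2B the Pyy cells held 1 to 3 MCM genes and the rest 4 to 7, and r within either group was not computed. The mean MCM level had an r between 0.04 (2B) and 0.51 (ventral bud) with the number of genes detected per cell. It followed the mean of the nucleotide and S phase chromatin list at 0.63 (liver) to 0.87 (2B) and of the fork list at 0.49 (ventral bud) to 0.84 (2B), and that of the mitosis list less, from 0.04 in the foregut to 0.55 on 2B.

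Likeness was computed for the 2828 genes that reached detection in 25% or more of cells on each plate. The likeness to the mean MCM level was taken as the mean over the 6 plates of Pearson's r within the plate. Apart from the members, Hells, a chromatin remodeler, was most alike at 0.52 (0.29 to 0.82 over the plates), ahead of Pcna at 0.45 (0.05 to 0.80), Dut at 0.44 (0.29 to 0.71), Lig1 at 0.44 (0.29 to 0.56), Ssrp1 at 0.43 (0.11 to 0.65) and Nasp at 0.43 (0.13 to 0.67). Rrm1, Sdc1, Nop56 and G3bp1 followed at 0.42, 0.42, 0.41 and 0.41. Of the members that could enter, Mcm5 was closest to the mean at 0.68 and Mcm2 farthest at 0.59, each being part of that mean. The lowest were Malat1, a nuclear noncoding RNA, at -0.45 (-0.62 to -0.17), and Bsg at -0.34, which ran from -0.784 on 2B to 0.025 at E14.5. Pam at -0.33 (-0.551 to -0.085), Ubb at -0.30 (-0.546 to -0.08) and Gm1821 at -0.28 (-0.451 to -0.008) came next. Depth, gene number per cell and the mix of cell types on a plate are shared by all of these values.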

How the data were processed

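Single cells with green fluorescence were sorted into plates and sequenced with Smart-seq2 and Nextera XT, per the labels' protocols; each cell is its own library, so no cell barcodes are shared. The submitters' processing notes name STAR 2.5.3, Cufflinks and Cuffdiff 2.2.1, with build GRCm38. How reads were counted and scaled, and on which annotation release, is not given in the sources used here. What the authors deposited is 1 table of log2 values for 20474 genes and 346 cells, with 76.7% of entries empty. Undoing the log2, subtracting 1 and dividing by 1 factor per cell put 1647510 of 1647530 values within 0.01 of a whole number, so the values were read as log2(normalized reads + 1) and empty entries as 0.

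Levels are means ± SD over cells, shares count cells at 5 or more normalized reads with exact Clopper-Pearson 95% intervals (counting error only), and a difference of at least 1 was counted over genes with a mean of at least 1 in either group. Cells are not replicates and no animal is named, so no test was run. Liver cells were split at Afp 10 and 5 and dorsal bud cells at Pyy 5, on the deposited log2 scale. Cells with 2 or more epithelial genes were called epithelial, and those with 3 or more mesenchyme markers and fewer than 2 epithelial genes mesenchyme. Doublets were not called. Named are all 7 members; of each pathway list at most 4 genes per comparison, those with the largest differences, plus Pcna, Mki67, Top2a, Cdkn1a, Cdkn1c and Ccnd1; and the 10 most and 5 least alike genes. Outside this rule are Orc1, Orc2, Orc3 and Ccnd3, and for the single dorsal plates Ccne2, E2f4 and Slbp, all named after their values were seen. The split of foregut cells by cardiac markers was also added after the data were seen. The members and lists were chosen with earlier results of these data known, and the E14.5 and foregut contrasts were added after the data were seen. Some listed genes, Cdkn2a and Ins1 among them, were not analysed here. Promoters are RefSeq windows. Alternatives covered the pseudocount, the mean, the scaling, thinning to 500000 reads (seed 1), cell filters, the detection limit and the split limits. Scripts were tested on simulated data and ran on Python 3.11.15 with numpy 2.4.6, pandas 2.3.3, scipy 1.17.1 and matplotlib 3.10.9.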

Additional observations from a re-analysis of the deposited data

Results flagged for a closer look

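Between Pyy cells and the other dorsal bud cells, 3 genes of the replication and cell cycle lists differed by 1 or more in opposite directions on the plates. This was not tested, and the MCM genes themselves were lower on both plates. Ccne2 (cyclin E2) differed by 1.12 on plate 2A and by -1.08 on plate 2B. E2f4, a repressor of the E2F family, differed by 1.32 on 2A and by -1.48 on 2B. Slbp, which binds the stem loop of histone mRNA, differed by 1.12 on 2A and by -1.62 on 2B.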

How the results depend on the processing

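In the dorsal bud all 7 MCM genes were lower by 1 or more in Pyy cells under each of the 13 alternatives that give the count. Their median difference went from -3.87 to -5.09 and -2.63 with pseudocounts of 0.1 and 10, to -2.24 with the log2 of the mean, and to -2.35 and -5.85 on plates 2A and 2B alone. All genes lower by 1 or more numbered 1031 with a pseudocount of 10 and 4333 with the log2 of the mean, against 2340. The number of genes above the floor changes with these settings too and is not given here, so these counts stand without their shares. Of all genes, 22.8% were lower on 2A alone, 29.4% on 2B alone and 20.9% against the other cells that met the epithelial rule. For the other alternatives the share of all genes is not given here. The share of cells with 4 or more MCM genes was 70.6% on 2A and 100% on 2B in the rest, and 0% in the Pyy cells of 2B.

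In the liver, the median MCM difference by Afp went from 2.12 to 0.45 with the log2 of the mean (2 genes higher, Mcm2 at -0.04) and to 0.99 in cells with at least 2000 genes (3 genes higher, Mcm2 at -0.13); the cause was not tested. All genes higher numbered 1959 with a pseudocount of 10, against 3361, again with a number of genes above the floor that changes and is not given here. The median of all genes ran from 0 to 2.16 over the settings.

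Counting cells with 3 or more MCM genes gave 77.1% (2A), 88.9% (ventral bud), 66.7% (liver), 56.2% (E14.5), 82.6% (Afp-high), 40.9% (Pyy cells) and 95.3% (other dorsal cells). Counting 5 or more gave 37% (ventral bud), 33.3% (liver), 23.3% (E14.5) and 43.5% (Afp-high). Without cells that carry markers of another type, the share with 4 or more was 14.3% both at E14.5 (14 cells) and in Afp-low liver cells (7 cells). Of 175 alternative values of the main results 147 counted as unchanged and 28 as moved. Of 480 others, for single genes, detection shares and medians of all genes, 469 counted as unchanged, 9 as moved and 2 as reversed. Unchanged meant inside the 95% interval for a share, within a set ratio for a count and within an SD for a difference. For the difference of a single gene that SD is over cells, which is a wide limit. No paired analysis was possible because the cells carry no replicate number shared between groups and no test was run. Small cell sets give wide intervals for shares.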
